A study of Homo sapiens with 8 samples.

Results

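FENDRR (ENSG00000268388) is a long noncoding RNA gene that lies next to FOXF1, the gene of a forkhead transcription factor, on chromosome 16. It was taken by its gene ID from the 2 deposited expression tables, 1 for each cell line, and is 1 of the 15469 loci with values in all 8 libraries. The study measured noncoding transcripts in LM3 and HepG2, both labelled as hepatocellular carcinoma lines, after exposure to the BET inhibitor JQ1 or to its solvent, and its title names lncRNAs associated with super-enhancers. The 4 groups were LM3 with JQ1, LM3 with vehicle (DMSO), HepG2 with JQ1 and HepG2 with vehicle (DMSO), with 2 libraries in each. The labels name no genetic change, clone, dose or duration. Each group is a single established line in culture, with no normal liver or tumour tissue beside it.

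FENDRR was described in the mouse embryo, where it is made in lateral plate mesoderm and is needed for normal heart and body wall development. The mouse RNA binds Polycomb repressive complex 2 (PRC2), which methylates lysine 27 of histone H3 at silenced genes, and it was also found with activating Trithorax-type complexes. FENDRR and FOXF1 are read in opposite directions away from each other. In adult organs FOXF1 marks mesenchymal and endothelial cells, among them the stellate cells of the liver, and not hepatocytes. Genes with dense enhancer clusters are known to be sensitive to inhibitors of the kind of JQ1.

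In the tables FENDRR spans chr16:86474529-86509099 on the minus strand of GRCh38, a length of 34571 bases. FOXF1 begins on the plus strand at position 86510527, 1428 bases from the 5′ end of FENDRR, in GENCODE 29. That annotation gives FENDRR 7 spliced transcripts with 2 to 4 exons each and 355 to 3095 bases after splicing. The longest, FENDRR-203, starts at 86508860, and FENDRR-206 starts at 86509099, on the FOXF1 side of it. The window around the RefSeq start, from 250 bases before it to 50 bases after its first position, is shown because it faces FOXF1 and carries a forkhead core motif. It covers chr16:86508811-86509110 on the minus strand of GRCh38.p14 and is written from 5′ to 3′, with the motif matches in capitals.
FENDRR start window: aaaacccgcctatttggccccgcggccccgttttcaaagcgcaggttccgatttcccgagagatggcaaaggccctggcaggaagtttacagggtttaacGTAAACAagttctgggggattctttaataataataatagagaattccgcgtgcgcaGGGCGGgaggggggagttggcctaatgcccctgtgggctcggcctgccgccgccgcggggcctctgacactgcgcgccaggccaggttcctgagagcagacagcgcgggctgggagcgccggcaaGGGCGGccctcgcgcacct
The first capitals, GTAAACA, are the core letters bound by forkhead factors and begin 150 bases before the RefSeq start. On either strand, 3.42% of 35116 RefSeq start windows of the same length held them. The GC box letters GGGCGG, known to be bound by Sp1-type factors, begin 94 bases before the start and again at base 32 after it, and 45% of all windows held at least 1. The letters CACGTG (held by 7.26% of windows), TATAAA (11.5%) and CCAAT (34.6%) had no match on either strand of the FENDRR window. The window had a GC content of 62.3%, against a median of 58.7% over all windows. It held 26 CpG dinucleotides, against a median of 14, and 69.9% of windows held fewer. The forkhead match and the GC box before the RefSeq start lie inside the span of FENDRR-206, and so inside that of FENDRR. All of these matches are letters only, and no binding was measured.

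Values were FPKM, a fragment count divided by transcript length and by the size of the library. Over all loci they summed to between 29369 and 35742 FPKM per library, and 11230 to 12332 loci had a value above 0. Ribosomal RNA and mitochondrial loci held 11.2% to 16.8% of the sum. Read totals were not given in the sources used here, so the counting error behind a value is unknown. The labels do not say whether replicate libraries came from separate cultures, and the p-values thus rest on a spread between libraries that could be technical alone. With 2 libraries against 2, an exact two-sided permutation test cannot go below p = 0.333, so tests came from limma fitted over all loci of a table.

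FENDRR RNA was lower with JQ1 in both lines. In LM3 it stood at 1.02 and 1.05 FPKM in the JQ1 libraries, against 3.35 and 3.44 FPKM in the vehicle libraries. In HepG2 it stood at 2.71 and 2.88 FPKM with JQ1, against 8.29 and 9.14 FPKM with vehicle. In each line both JQ1 libraries lay below both vehicle libraries, with a gap between the closest libraries of 2.3 FPKM in LM3 and 5.41 FPKM in HepG2. These are bulk samples, so fewer cells making FENDRR and less FENDRR RNA per cell cannot be told apart.

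The LM3 means were 1.04 ± 0.0212 FPKM with JQ1 and 3.40 ± 0.0636 FPKM with vehicle (SD, n = 2 each), so that 30.5% of the vehicle level was left. Over the possible pairs of a JQ1 and a vehicle library the remainder ran from 29.7% to 31.3%. In limma the fall was -1.34 on the log2(FPKM + 0.5) scale (SE 0.0845, 95% confidence interval -1.57 to -1.12, adjusted p = 0.00565 over 6474 loci). The HepG2 means were 2.79 ± 0.12 FPKM with JQ1 and 8.71 ± 0.601 FPKM with vehicle (SD, n = 2 each), with 32.1% of the vehicle level left and a range of 29.6% to 34.7% over pairs. The fall there was -1.48 (SE 0.0892, 95% confidence interval -1.72 to -1.25, adjusted p = 0.00513 over 5906 loci). The added 0.5 FPKM shrinks changes of low loci, and without it the log2 ratios of the means were -1.71 in LM3 and -1.64 in HepG2. Leaving out any 1 of the 4 LM3 libraries ended the LM3 call (adjusted p from 0.0603 to 0.1), and leaving out HepG2 JQ1 replicate 1 or 2 ended the HepG2 call (adjusted p = 0.0884 and 0.0836). With 1 library left out, limma called 0 loci in the LM3 table, where 1525 to 2365 had an unadjusted p under 0.05, so every LM3 call given here rests on all 4 libraries. Without HepG2 JQ1 replicate 1 or 2 it likewise called 0 loci in the HepG2 table. The log2 fold changes of FENDRR then ran from -1.36 to -1.33 in LM3 and from -1.55 to -1.42 in HepG2.

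**Figure D1:**
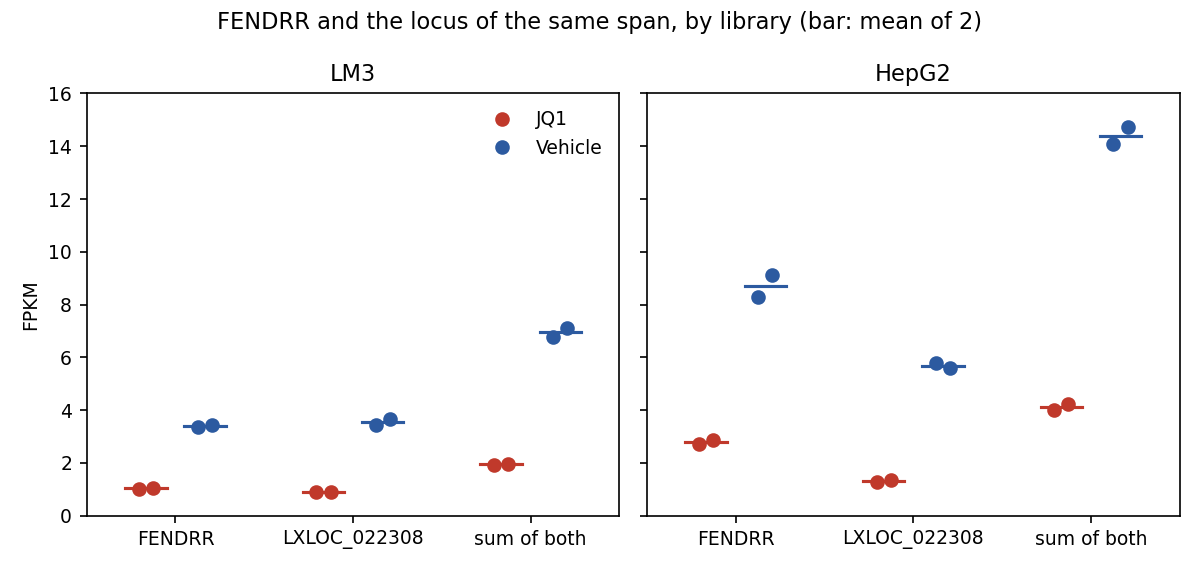
FPKM of FENDRR, of LXLOC_022308 (a locus of the same span) and of their sum on the vertical axis, in LM3 (left) and HepG2 (right), with 1 point per library, JQ1 in red, vehicle in blue and a bar at the mean of 2. In both lines each JQ1 pair lies below its vehicle pair, for FENDRR at 1.02 and 1.05 against 3.35 and 3.44 FPKM in LM3 and at 2.71 and 2.88 against 8.29 and 9.14 FPKM in HepG2.

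Ordered by level, FENDRR was lowest in LM3 with JQ1 (mean 1.04 FPKM), then in HepG2 with JQ1 (2.79 FPKM), LM3 with vehicle (3.40 FPKM) and HepG2 with vehicle (8.71 FPKM). No neighbouring groups in that order overlapped. Each step crosses the 2 tables, which may have been scaled separately, and none was tested. Within a library, FENDRR was above 75.8% and 76.7% of loci in LM3 with JQ1, against 91.6% in both LM3 vehicle libraries. In HepG2 it was above 92% and 92.1% of loci with JQ1, against 97.4% and 97.8% with vehicle. FENDRR thus moved down the order of loci in both lines, and remained above most loci in every library.

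The LM3 response minus the HepG2 response was 0.14 on the log2 scale (SE 0.113, 95% confidence interval -0.13 to 0.41, limma adjusted p = 0.674 over 5035 loci). The interval includes 0, and the test does not show that the responses were equal. The sign of the difference turned with the pseudocount, as it was -0.02 with 0.1 FPKM added (adjusted p = 0.967). Only 0.218% of loci (11 of 5035) had a response called different between the lines, and 604 had an unadjusted p under 0.05.

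Falls were common in both tables. Of the loci tested, 15.4% were called lower with JQ1 in LM3 (998 of 6474) and 14.2% in HepG2 (840 of 5906), while 7.92% and 10.8% were called higher. These splits depended on scaling. With libraries centred on their median, 770 loci were lower and 700 higher in LM3, and 786 lower and 809 higher in HepG2. With quantile normalization 724 were lower and 704 higher in LM3, and 817 and 755 in HepG2. FENDRR was called lower under both, with falls of 1.26 and 1.23 in LM3 and 1.44 and 1.46 in HepG2. The median log2 fold change of all loci was -0.08 in LM3 and -0.01 in HepG2, and that of FENDRR was -1.34 and -1.48. FENDRR held place 104 from the largest fall in LM3, where 1.59% of loci fell more, and place 23 in HepG2, where 0.373% did. Among loci with an Ensembl ID it was at place 26 of 2063 in LM3 and 7 of 1922 in HepG2. The loci with a symbol next to it in the order of fold changes were AC008946.1 (-1.35, adjusted p = 0.215), LINC01186 (-1.35), AP003119.1 (-1.32) and AC244230.1 (-1.32, adjusted p = 0.124) in LM3, of which the first and last were not called. In HepG2 they were SNHG26 (-1.64), PRR7-AS1 (-1.58), NTRAS (-1.48) and AC007493.1 (-1.43).

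**Figure D2:**
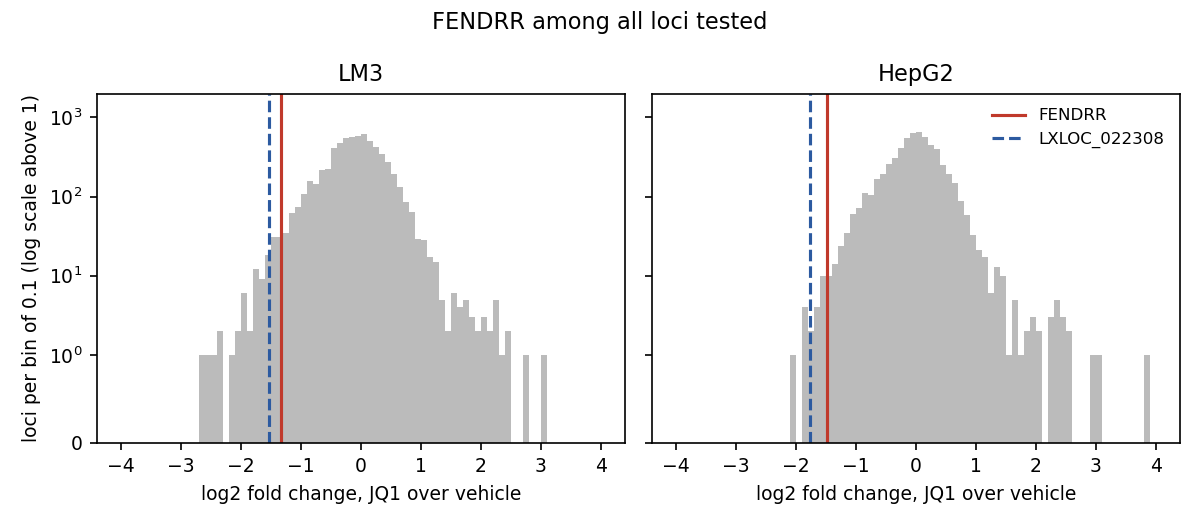
Number of loci (vertical axis, logarithmic above 1) by log2 fold change of JQ1 over vehicle (horizontal axis, bins of 0.1) for all loci tested in LM3 (left) and HepG2 (right), with FENDRR as a solid red line and LXLOC_022308 as a dashed blue line. FENDRR at -1.34 and -1.48 lies in the left tail of both, with 1.59% and 0.373% of loci to its left.

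In LM3, 1916 loci had a vehicle mean within 2-fold of that of FENDRR, of which 456 (23.8%) were called lower, beside 15.4% of all loci, and 110 higher, and 67 fell more than FENDRR. In HepG2 there were 600 such loci. Of these 134 (22.3%) were called lower, beside 14.2% of all loci, and 68 higher, and 11 fell more. Choosing loci by the vehicle mean, 1 side of the comparison, can favour falls. It also leaves out loci of lower level, so these shares and those of all loci are not like for like. Of the 5035 loci tested in both lines, 8.7% (438) were called lower in both, FENDRR among them. Counting by the smaller of a locus's 2 falls, 18 loci including FENDRR reached its value, and all 18 were called lower in both lines. Those with a symbol were LINC00963 (-2.30 in LM3 and -1.89 in HepG2), NTRAS (-1.55 and -1.48) and FENDRR, and the others carried LXLOC names without a symbol.

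One of these, LXLOC_022308, has the span and strand of FENDRR, so reads of the 2 loci may have been shared or split between them. LXLOC_022308 was at 0.91 and 0.90 FPKM in LM3 with JQ1, against 3.43 and 3.67 FPKM with vehicle. In HepG2 it was at 1.29 and 1.34 FPKM with JQ1, against 5.79 and 5.59 FPKM with vehicle. It fell as FENDRR did, with no overlap between the treatments in either line. Its log2 fold change was -1.53 in LM3 (SE 0.0882, limma adjusted p = 0.00539) and -1.77 in HepG2 (SE 0.0793, adjusted p = 0.00262), and the difference between the lines was 0.24 (95% confidence interval -0.01 to 0.49, adjusted p = 0.425).

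The sum of both loci was followed too, although neither the transcript lengths behind their FPKM nor the treatment of shared reads is given. It was 1.93 and 1.95 FPKM in LM3 with JQ1, against 6.78 and 7.11 FPKM with vehicle, and 4.0 and 4.22 FPKM in HepG2 with JQ1, against 14.08 and 14.73 FPKM with vehicle. JQ1 left 27.9% of the vehicle level of the sum in LM3 and 28.5% in HepG2. Refitted in place of FENDRR, the sum gave log2 fold changes of -1.61 in LM3 (adjusted p = 0.00516) and -1.69 in HepG2 (adjusted p = 0.00278), with a difference between the lines of 0.08 (95% confidence interval -0.16 to 0.33, adjusted p = 0.783). FENDRR made up 52.8% and 53.8% of the sum in LM3 with JQ1, against 49.4% and 48.4% with vehicle. In HepG2 its share was 67.8% and 68.2% with JQ1, against 58.9% and 62.1% with vehicle. In each line the shares with JQ1 lay above those with vehicle, by a margin that was not tested. Pairs of an Ensembl and an LXLOC locus with the same span and strand numbered 196, and the log2 fold changes within a pair differed by a median of 0.248 in LM3 (45 pairs tested) and 0.219 in HepG2 (37 pairs tested). FENDRR minus LXLOC_022308 was 0.18 and 0.29.

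Around FENDRR, the tables held few other loci with RNA to test. Of 32 other loci with values within 1 Mb, 7 had a mean of at least 0.5 FPKM in 1 line or both and were tested, and the other 25 reached at most 0.41 FPKM in any library. Within 0.5 Mb the highest value of the other 12 loci was 0.21 FPKM, so FENDRR and LXLOC_022308 were the only loci tested there. None of the 15 coding genes within 1 Mb, FOXF1 included, is in the tables, and their RNA was not analysed here. The nearest are FOXF1, MTHFSD, and the forkhead genes FOXC2 and FOXL1, all within 67.3 kb on the far side of the FENDRR start.

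Counting FENDRR and LXLOC_022308, 3 loci were called lower and 1 higher of 7 tested in LM3, and 3 lower and 1 higher of 8 tested in HepG2. FENDRR and LXLOC_022308, of 1 span, were 2 of the 3 lower loci in each line. Over all loci 15.4% were lower and 7.92% higher in LM3, and 14.2% and 10.8% in HepG2, and so few tested loci are not set against these shares. AC105429.1, 961 kb away on the FOXF1 side, was at 3.65 and 3.08 FPKM in LM3 with JQ1, against 2.0 and 2.10 FPKM with vehicle, and at 1.52 and 1.66 FPKM in HepG2 with JQ1, against 1.04 and 0.83 FPKM with vehicle. It rose in both lines (0.60, adjusted p = 0.0283 in LM3, and 0.55, adjusted p = 0.0345 in HepG2), opposite to FENDRR, and both calls were lost without the filter on low values. ZCCHC14-DT, at 983 kb, was at 0.81 and 1.01 FPKM in LM3 with JQ1, against 2.02 and 2.60 FPKM with vehicle. It fell there by 0.99 on the log2 scale (limma adjusted p = 0.0192). In HepG2 ZCCHC14-DT was too low to test, at 0.00 and 0.14 FPKM with JQ1, against 0.43 and 0.18 FPKM with vehicle. AC092127.1, 879 kb away on the other side, was at 0.25 and 0.26 FPKM in HepG2 with JQ1, against 0.82 and 0.91 FPKM with vehicle. It fell there by 0.85 (limma adjusted p = 0.0127). In LM3 AC092127.1 was too low to test, at 0.27 and 0.20 FPKM with JQ1, against 0.70 and 0.63 FPKM with vehicle. The tested loci not called were LXLOC_022288 (0.24 in LM3 and 0.11 in HepG2), LXLOC_021102 (0.36 and 0.35), C16orf95-DT (-0.95 and 0.05) and, in HepG2, LXLOC_022292 (-0.51). LXLOC_022292 was at 0.61 and 0.73 FPKM in HepG2 with JQ1, against 2.40 and 0.46 FPKM with vehicle, and its log2 fold change was 0.28 without vehicle replicate 1 and -1.31 without vehicle replicate 2. C16orf95-DT was listed at 0 in 1 LM3 JQ1 library and at 0.87 FPKM in the other, against 1.15 and 1.06 FPKM with vehicle, and without JQ1 replicate 1 its LM3 value was -0.23.

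LINC01081 and LINC01082 lie in the distant region upstream of FOXF1 that holds its lung enhancers. Both were too low to test. LINC01082 was listed at 0 in both HepG2 JQ1 libraries, against 0.19 and 0.19 FPKM with vehicle, and LINC01081 at 0.05 and 0.05 FPKM with JQ1, against 0.21 and 0.16 FPKM with vehicle. In LM3 both were listed at 0 in all 4 libraries. FOXC2-AS1, beside FOXC2, was at 0 in 5 of 8 libraries and reached 0.20 FPKM, with no order by treatment.

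**Figure D3:**
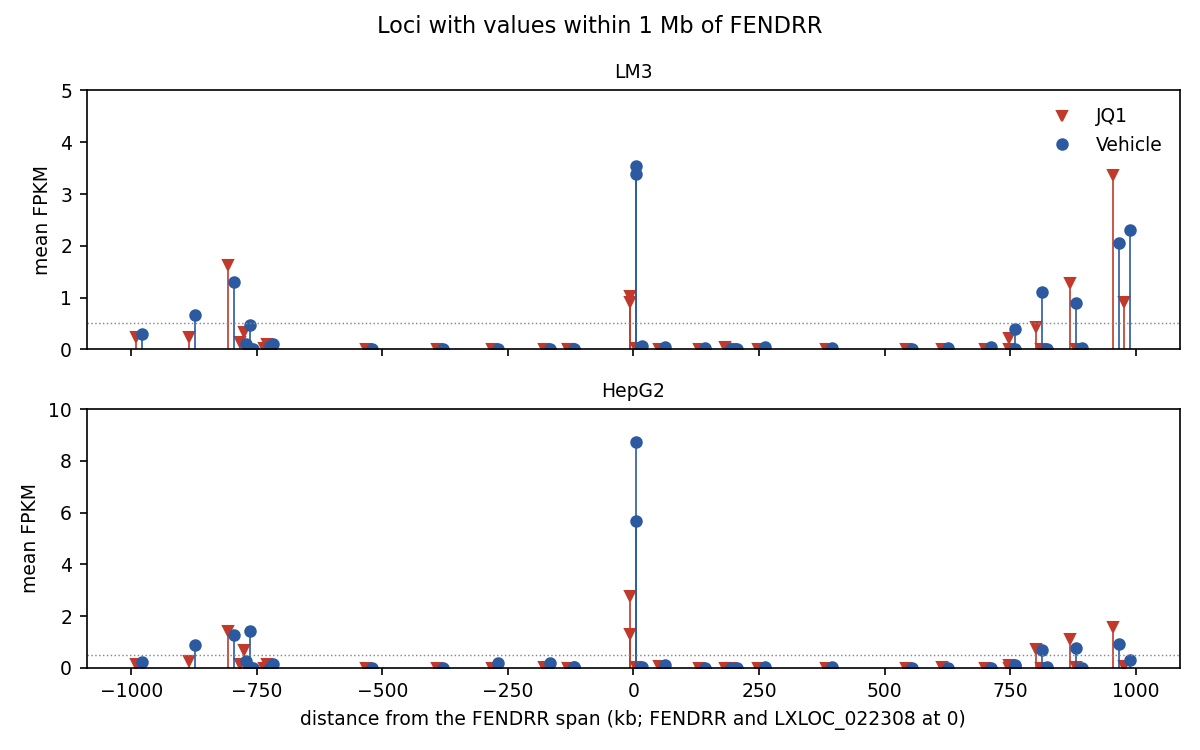
Mean FPKM (vertical axis) of the 34 loci with values within 1 Mb, by distance in kb from the FENDRR span (horizontal axis, drawn slightly apart for JQ1 in red triangles and vehicle in blue circles), in LM3 (top) and HepG2 (bottom), with a dotted line at the 0.5 FPKM needed for a test. FENDRR and LXLOC_022308 stand alone within 0.5 Mb, where no other locus exceeded 0.21 FPKM.

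FENDRR is 1 of many lncRNAs that neighbour the gene of a transcription factor. A list of 94 such lncRNAs, FENDRR included, was drawn from general knowledge with earlier results of these data known. Of these 79 had values, and the counts below include FENDRR. In LM3 15 of 32 tested members (46.9%) were called lower, beside 15.4% of all loci, and 0 higher, beside 7.92%. In limma 2 were higher at an unadjusted p under 0.05, 1 was called higher with centred libraries and 2 with quantile normalization. The median log2 fold change was -0.55 in LM3, beside -0.08 over all loci. In HepG2 10 of 30 tested members (33.3%) were called lower, beside 14.2% of all loci, and 0 higher, beside 10.8%. There 1 was higher at an unadjusted limma p under 0.05, and the median was -0.33 beside -0.01. Without FENDRR the medians were -0.53 and -0.31. FENDRR had the largest fall of the tested members in HepG2, and the largest but for PAX8-AS1 in LM3.

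PAX8-AS1, which overlaps the thyroid and kidney factor gene PAX8, was at 0.96 and 0.78 FPKM in LM3 with JQ1, against 5.39 and 4.91 FPKM with vehicle, and fell by 2.05 on the log2 scale (adjusted p = 0.00533). In HepG2 it was at 0.36 and 0.36 FPKM with JQ1, against 0.80 and 0.89 FPKM with vehicle, and fell by 0.64 (adjusted p = 0.0191). HOXA10-AS, in the HOXA cluster of body-axis genes, fell by 1.17 in LM3 (adjusted p = 0.0111) and by 0.75 in HepG2 (adjusted p = 0.0116). IRF1-AS1, beside the interferon-response factor gene IRF1, fell by 0.75 (adjusted p = 0.024) and 1.09 (adjusted p = 0.0154) in the same order of lines. NR2F1-AS1, beside a nuclear receptor gene, fell by 0.88 (adjusted p = 0.0186) and 0.75 (adjusted p = 0.024), and PVT1, beside MYC, by 0.71 (adjusted p = 0.011) and 0.68 (adjusted p = 0.00873). In LM3 ELF3-AS1, beside an epithelial ETS factor gene, fell by 1.13 (adjusted p = 0.00908) and LINC01116 by 1.06 (adjusted p = 0.0148). LINC01116 is a distant neighbour of the HOXD cluster. It begins at 176629572 on chromosome 2, and HAGLR, an lncRNA of that cluster, ends at 176188958. In HepG2 PITX1-AS1, beside the homeobox gene PITX1, fell by 0.72 (adjusted p = 0.0379). Its call was lost with centred or quantile-normalized libraries and without the filter on low values, which also ended that of NR2F1-AS1 in HepG2. The strand setting of the counting was not given in the sources used here, so values of antisense loci may hold reads of the partner gene.

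**Figure D4:**
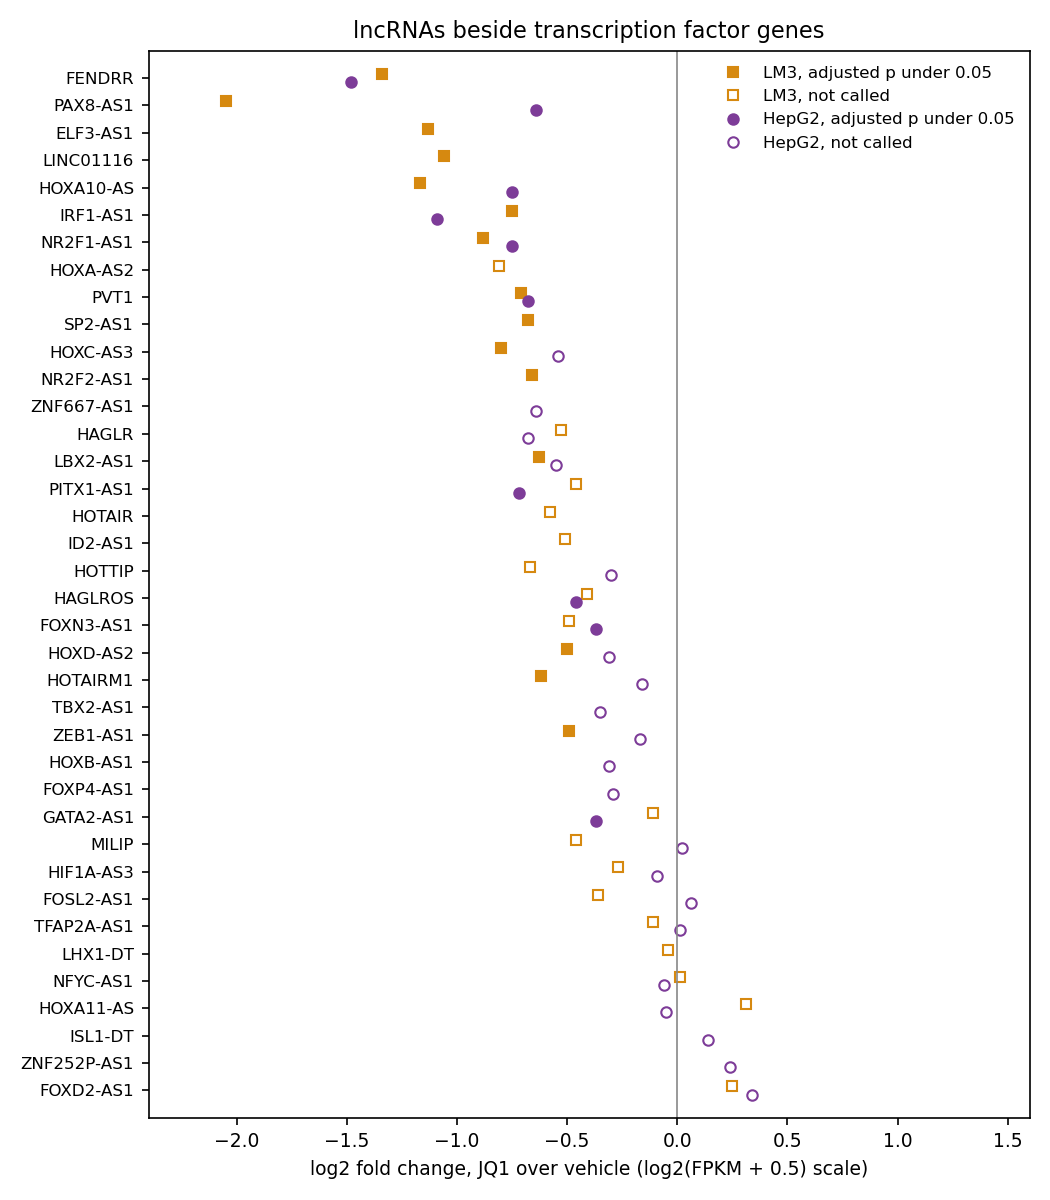
log2 fold change of JQ1 over vehicle (horizontal axis) for the tested lncRNAs that neighbour transcription factor genes, 1 per row, with LM3 as orange squares (32 tested) and HepG2 as purple circles (30 tested), filled where the limma adjusted p was under 0.05. FENDRR is the farthest left in HepG2 at -1.48, PAX8-AS1 in LM3 at -2.05, and no filled point lies right of 0.

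FENDRR is also one of the lncRNAs reported to bind PRC2. Of 27 such lncRNAs, listed in the same way, 26 had values. Here the share called lower was nearer to that of all loci. In LM3 5 of 21 tested members (23.8%) were called lower, beside 15.4% of all loci, and 4 higher, beside 7.92% (2 higher with quantile normalization). In HepG2 4 of 19 (21.1%) were called lower, beside 14.2%, and 1 higher, beside 10.8%. FENDRR itself is counted among the lower members in both lines. The medians without FENDRR were -0.16 and -0.01, and no tested member of the list fell more than FENDRR in either line. HEIH, an lncRNA raised in liver cancer, fell by 0.80 in LM3 (adjusted p = 0.0289) and by 0.77 in HepG2 (adjusted p = 0.00823). CYTOR, which has a near-identical copy in MIR4435-2HG that may share its reads, fell by 0.64 (adjusted p = 0.0146) and 0.47 (adjusted p = 0.0195). NEAT1, the scaffold of paraspeckles, rose to 186 and 180.0 FPKM in LM3 with JQ1, against 115 and 119 FPKM with vehicle (0.64, adjusted p = 0.0122), and to 170 and 194 FPKM in HepG2 with JQ1, against 95.20 and 88.80 FPKM with vehicle (0.98, adjusted p = 0.00864). UCA1, a bladder cancer lncRNA, fell by 0.53 in LM3 (adjusted p = 0.0239) and had a log2 fold change of -0.09 in HepG2 (adjusted p = 0.545). Without the filter on low values the LM3 calls of HEIH and UCA1 were lost.

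Loci were also ranked by how closely their log2 values, centred within each line, followed those of FENDRR over the 8 libraries. The measure was the root mean square difference, with a median of 0.689 over 1539 loci with a symbol, and with 0.13 for LXLOC_022308. The 6 closest were BACE1-AS (0.144), DLGAP1-AS1 (0.151), PRECSIT (0.153), BASP1-AS1 (0.157), NTRAS (0.159) and AP000424.1 (0.164). BACE1-AS, antisense to the beta-secretase gene, was at 0.24 and 0.47 FPKM in LM3 with JQ1, against 1.35 and 1.32 FPKM with vehicle, and at 0.38 and 0.59 FPKM in HepG2 with JQ1, against 1.82 and 2.29 FPKM with vehicle. All 6 were called lower in both lines. That follows largely from the ranking, which picks loci whose values fall with JQ1 as those of FENDRR do. The ranking depended on the measure, since a pseudocount of 0.1 FPKM kept 1 of the 6 and Pearson's r of uncentred levels kept 0. By that r the closest over the 8 libraries, which share line and treatment, were AL137782.1 (0.99), CTBP1-DT (0.988) and CPS1-IT1 (0.982).

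Markers of the cell types that make FOXF1 or that the lines resemble were read from lncRNAs alone, as coding markers were not analysed here. Of 14 mesenchyme and endothelium lncRNAs 13 had values, summing to 25.7 to 29.8 FPKM in LM3 with JQ1, against 51.9 to 52.5 FPKM with vehicle, and to 22.5 to 24.7 FPKM in HepG2 with JQ1, against 38.9 to 43.7 FPKM with vehicle. MIR100HG, MIR503HG and NR2F1-AS1 were the highest of them, and MIR100HG and NR2F1-AS1 were called lower with JQ1 in both lines. MIR100HG averaged 16.1 FPKM in LM3 with JQ1, against 38.9 FPKM with vehicle, and was at 15.39 and 16.65 FPKM in HepG2 with JQ1, against 31.26 and 28.62 FPKM with vehicle, the largest part of each sum. MIR503HG was not called, at 8.35 FPKM in LM3 with JQ1, against 7.25 FPKM with vehicle, and at 2.30 FPKM in HepG2 with JQ1, against 2.12 FPKM with vehicle. Of 15 hepatocyte lncRNAs 12 had values, summing to 1.57 to 1.61 FPKM in LM3 with JQ1, against 2.80 to 2.94 FPKM with vehicle, and to 3.21 to 3.35 FPKM in HepG2 with JQ1, against 11.4 to 11.8 FPKM with vehicle. CPS1-IT1, within the urea cycle gene CPS1, was called lower in both lines, and averaged 1.27 FPKM in HepG2 with JQ1, against 6.81 FPKM with vehicle, the largest part of the HepG2 sum. The next highest were HISLA and LINC01485 in HepG2, both called lower there (-1.31 and -0.75), and HULC and LINC02428 in LM3, where HULC was not called (0.01) and LINC02428 was too low to test. LINC01554 averaged 0.215 FPKM in LM3 with JQ1, against 0.145 FPKM with vehicle, and 0.305 FPKM in HepG2 with JQ1, against 0.21 FPKM with vehicle, and was not tested. The 7 immune cell lncRNAs with values, of 12, summed to 1.28 to 1.38 FPKM in LM3 with JQ1, against 1.34 to 1.79 FPKM with vehicle, and to 1.11 to 1.18 FPKM in HepG2 with JQ1, against 1.34 to 1.40 FPKM with vehicle. The highest were LINC00926, MIAT and ITGB2-AS1 in LM3 and LINC00926, MIAT and TRG-AS1 in HepG2. Only LINC00926 was tested, and it was not called in either line, while the others were too low to test. HAND2-AS1, CARMN and MEG3, which mark stromal cells, were at most at 0.38 FPKM in any library. HULC, a liver cancer lncRNA, was at 0.50 to 0.80 FPKM over the 8 libraries. Its locus is listed from 8435568 to 9294133 on chromosome 6, and the transcript length behind its FPKM is not given. HNF4A-AS1 was listed at 0 in all 4 LM3 libraries and both HepG2 JQ1 libraries. In LM3 2 mesenchyme, 4 hepatocyte and 3 immune lncRNAs were listed at 0 in both JQ1 libraries, against 3, 1 and 2 in both vehicle libraries. In HepG2 the numbers were 3, 2 and 1 with JQ1, against 1, 1 and 1 with vehicle. The hepatocyte and mesenchyme sums were lower with JQ1 in both lines, as FENDRR was, although not every member was. The immune sum was lower with JQ1 in HepG2 too, and its ranges overlapped in LM3. The part of these markers in the fall of FENDRR was not tested.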

How the data were processed

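Total RNA depleted of ribosomal RNA was sequenced in read pairs on a HiSeq instrument, per the labels' protocols. The authors deposited FPKM in 1 table per cell line, per the file headers, with 23161 loci each. The 7692 loci with a dash in place of values were left out. The submitters' processing notes list Bowtie 0.12.2, hg19 and mm8. The coordinates match GRCh38: of 8463 Ensembl loci found in GENCODE 29, 83.9% had the same start. How fragments were counted, with which annotation and strand setting, and where LXLOC loci came from is not given in the sources used here.

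JQ1 and vehicle were compared within a table on log2(FPKM + 0.5) in limma 3.58.1, run in R 4.3.3 with trend and robust options. Loci entered where their mean over a line's 4 libraries reached 0.5 FPKM. Tests were two-sided, with Benjamini-Hochberg adjustment over all loci tested and a threshold of 0.05. A called locus is one under that threshold. The difference between lines came from 1 fit over 8 libraries. Before use, the fits within each line were tested on simulated data, and the fit of the difference was not. At the best-fitting step of each library, low values lay within 0.1 of a whole fragment step in 33.1% to 39.4% of cases. An even spread gives 20% at a step fixed beforehand, so these shares cannot be set against it directly. Counts were not recovered. Start windows came from RefSeq. Tables were handled in Python 3.11.15 (pandas 2.3.3, NumPy 2.4.6) and drawn with matplotlib 3.10.9.

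FENDRR, the lists and the tests were chosen with earlier results of these data known. Named loci were the tested ones within 1 Mb, list members called in both lines or among the 6 largest called changes of a line, the 6 closest in pattern, the 2 on either side of FENDRR in the order of falls, and the 3 highest markers of each list. LINC01081, LINC01082, FOXC2-AS1, LINC00963, HAND2-AS1, CARMN, MEG3, HNF4A-AS1 and the loci closest by Pearson's r were named after their values were seen. Replicate numbers were taken from the titles. Alternatives covered the pseudocount, the filter, the scaling, the limma options, the replicate block, the window, the likeness measure and each library left out; summing FENDRR with LXLOC_022308, or dropping that locus, was added after seeing the data.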

Additional observations from a re-analysis of the deposited data

Results flagged for a closer look

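The response of PAX8-AS1 to JQ1 differed between the lines in the limma test of the difference itself. LM3 minus HepG2 was -1.40 on the log2(FPKM + 0.5) scale (SE 0.139, adjusted p = 0.0234), with falls of 2.05 in LM3 and 0.64 in HepG2. The difference stayed at -1.40 but was no longer called with a pseudocount of 0.1 FPKM (adjusted p = 0.081) and with the replicate number as a block (adjusted p = 0.139). The call was also lost when any 1 of the 8 libraries was left out, with values of -1.5 to -1.31 (adjusted p from 0.0755 to 0.179). FENDRR, from the same list, had a difference of 0.14 (adjusted p = 0.674).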

How the results depend on the processing

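FENDRR was called lower with JQ1 in both lines under the 13 alternative settings that kept every library and FENDRR as its own locus, with log2 fold changes of -1.62 to -1.11 in LM3 (adjusted p from 0.000186 to 0.014) and -1.61 to -1.36 in HepG2 (0.000202 to 0.0144). In the 12 of those that tested it, the difference between lines ran from -0.02 to 0.24 and was called in 0; a pseudocount of 0.1 reversed its sign (-0.02). With replicate numbers as a block, adjusted p for FENDRR was 0.0126 in LM3 and 0.00112 in HepG2. Same-numbered libraries had deviations correlated at r = 0.135 in LM3 and -0.0345 in HepG2 across loci. With 2 pairs a line, and no label that ties a number to a culture or day, pairing was not taken as given. Over all loci the block gave 824 lower and 391 higher in LM3, and 833 and 620 in HepG2. With 1 library left out, FENDRR ran from -1.36 to -1.33 in LM3 and from -1.55 to -1.42 in HepG2, with a difference between lines of 0.07 to 0.21, and loci called over a whole table numbered 0 in LM3 and 0 to 292 lower and 0 to 199 higher in HepG2. Members beside transcription factor genes called lower were then 0 in LM3 and 0 to 4 in HepG2, and PRC2-binding members were 0 in LM3 and 0 to 4 lower and 0 to 1 higher in HepG2. Loci within 1 Mb called then were 0 in LM3, and 0 to 3 lower and 0 higher in HepG2. The list beside transcription factor genes had 6 lower in HepG2 with a filter at 1 FPKM, and 1 higher in LM3 with centred libraries and 2 with quantile normalization. The PRC2 list in LM3 had 3 lower and 1 higher with no filter, and 2 higher with quantile normalization. Within 1 Mb, 0 loci were called higher with no filter in both lines; 0 were with a window of 0.5 Mb, and 2 in LM3 with 2 Mb. The likeness ranking kept 1 of 6 loci with a pseudocount of 0.1 and 0 with Pearson's r. Without 1 library, LXLOC_022292 in HepG2 ran from -1.31 to 0.28, and C16orf95-DT in HepG2 from -0.18 to 0.28. With no filter the calls of AC105429.1 (both lines), HEIH and UCA1 (LM3) and NR2F1-AS1 and PITX1-AS1 (HepG2) were lost, and that of PITX1-AS1 also with centred or quantile-normalized libraries. The cause of these changes was not tested. Where 1 library was left out, fewer libraries remained and the values of that library were gone, and the parts of each were not separated. Depth is unknown, and the spread of 2 libraries sets the precision.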
